A study of Mus musculus with 8 samples.

Results

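First-intron peaks are the H3K4me3 peaks that the deposited table annotates to intron 1 of a transcript. Of 35486 listed peaks, 3012 (8.49%) carried that annotation, and each was 400 bp wide. They lay in the first introns of 1822 host genes, where host gene means the gene named in the annotation. The annotation gave promoters within 3 kb of a start site priority over introns, so every first-intron peak was more than 3 kb from its nearest start site by construction.

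H3K4me3, trimethylation of lysine 4 on histone H3, is deposited by SET1 and MLL (KMT2) methyltransferase complexes and is concentrated at the start sites of active and poised genes. First introns lie directly downstream of the promoter and often hold enhancers and alternative start sites, which can carry lower levels of the same mark. In lung tumor cells, as in other cells, the mark is therefore read mainly as a sign of promoter activity, and its intronic peaks as possible secondary start sites or active regulatory elements.

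The study profiled H3K4me3 by CUT&Tag, in which antibody-guided enzyme releases marked chromatin for sequencing, in CD45-CD31-EpCAM+ cells sorted from autochthonous mouse lung tumors. KL tumors (Lkb1fl/fl; n = 2 libraries, replicates 1 and 2) were compared with KLG4m/m tumors (Lkb1fl/fl Gpx4m/m; n = 2 libraries, replicates 3 and 4). Mice of both genotypes were 8 to 10 weeks old when given Ad-Cre through the nose, and both received tamoxifen. Cells were taken 10 weeks after Ad-Cre, which covered 5 weeks of tumor growth, 2 weeks of tamoxifen and 3 weeks of rest. Both groups therefore share loss of Lkb1, adenoviral Cre and the drug. In KLG4m/m cells, Cre also removes a stop cassette in front of a tamoxifen-dependent Dre recombinase under the CAG promoter, and Dre then deletes rox-flanked exons of Gpx4, the glutathione peroxidase that reduces lipid hydroperoxides. The deletion thus needs both inducers and can be incomplete, and the H3K4me3 signal of Gpx4 does not measure it. The only listed peak of Gpx4 stood at 69.6 and 68.0 CPM in KL and 88.2 and 93.2 in KLG4m/m, and was called higher. The question addressed here is whether the mark in first introns differed between Gpx4-deleted and Gpx4-intact tumor cells, and whether it followed the promoter of the same gene.

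The libraries held 3244495 to 3463731 reads in listed peaks. Libraries of the same group differed little beyond counting noise at first-intron peaks, with a chi-square per degree of freedom of 1.07 for KL and 1.14 for KLG4m/m, against 1.86 to 2.07 between groups. The p-values below measure only that spread between samples. Libraries are not tied to mice, so whether that spread includes variation between animals is not known. As a check of the sort, 14 of 15 epithelial and alveolar markers had a listed peak (Sftpc had none), and their summed signal was 606 and 623 counts per 1000000 reads (CPM) in KL and 501 and 518 in KLG4m/m. Peaks were also listed for 9 of 11 lymphocyte markers, 9 of 10 macrophage and neutrophil markers, 6 of 6 endothelial markers and 4 of 7 fibroblast markers. The lymphocyte sum was 173 to 185 CPM in KL and 236 to 241 in KLG4m/m. The macrophage and neutrophil sum was 219 to 232 in KL and 283 to 296 in KLG4m/m. Groups overlapped in the endothelial sum, with 207.7 and 244.5 CPM in KL and 206.8 and 230.1 in KLG4m/m. They also overlapped in the fibroblast sum, with 84.3 and 93.3 CPM in KL and 89.0 and 93.5 in KLG4m/m. Ptprc, which encodes CD45, was at 54.4 and 59.6 CPM in KL and 69.9 and 63.2 in KLG4m/m. Epcam, used in the sort, was at 52.4 and 57.6 CPM in KL and 33.4 and 29.1 in KLG4m/m, with 1 of its 2 peaks called lower. Cd79a, Ncr1, Marco, Col1a2, Dcn and Lum had no listed peak. In sorted bulk cells, fewer cells of one type and less mark per cell cannot be told apart, and the part of other cell types in the results below was not tested.

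No genome of the build used by the table was at hand, so the letters of the peaks themselves are not printed. The sequences shown instead are promoters of genes in which the first intron and the promoter parted, described further on: Rasa2 and Rnf217, whose promoter mark fell, and Tent4a, whose promoter mark was level while its intron peak fell. These 3 genes have a single promoter in the RefSeq table (GRCm38.p6). Each window is 300 bases, printed 5′ to 3′ on the gene's strand, with every CG dinucleotide in capitals.
Rasa2: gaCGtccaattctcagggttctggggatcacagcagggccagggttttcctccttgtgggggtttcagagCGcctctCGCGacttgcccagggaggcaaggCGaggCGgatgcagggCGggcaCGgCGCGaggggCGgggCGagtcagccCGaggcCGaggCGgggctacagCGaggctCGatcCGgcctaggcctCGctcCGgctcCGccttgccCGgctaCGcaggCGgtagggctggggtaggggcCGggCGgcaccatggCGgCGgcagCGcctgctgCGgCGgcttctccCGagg
Rnf217: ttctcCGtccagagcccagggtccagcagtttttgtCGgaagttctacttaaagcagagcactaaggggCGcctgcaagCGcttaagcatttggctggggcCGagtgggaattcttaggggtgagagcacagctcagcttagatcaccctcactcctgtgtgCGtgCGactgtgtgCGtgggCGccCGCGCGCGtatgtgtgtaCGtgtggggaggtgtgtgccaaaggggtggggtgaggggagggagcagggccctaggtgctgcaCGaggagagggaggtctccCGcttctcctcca
Tent4a: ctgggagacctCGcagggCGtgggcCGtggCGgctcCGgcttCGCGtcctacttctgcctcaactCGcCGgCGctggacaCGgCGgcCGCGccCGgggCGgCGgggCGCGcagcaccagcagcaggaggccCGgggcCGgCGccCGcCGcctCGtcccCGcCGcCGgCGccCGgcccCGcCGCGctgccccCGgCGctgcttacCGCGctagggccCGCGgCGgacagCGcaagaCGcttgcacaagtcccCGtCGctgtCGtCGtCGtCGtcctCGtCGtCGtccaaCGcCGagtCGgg
The Rasa2 window is chr9:96631454-96631753 on the minus strand and holds 32 CG dinucleotides. The window of Rnf217, chr10:31609676-31609975 on the minus strand, holds 16. Tent4a, at chr13:69533815-69534114 on the minus strand, has 54. CG reads the same on both strands, and over 32851 RefSeq promoters of this length the median was 7. At least as many as in Rasa2 were found in 9.52% of them, as many as in Rnf217 in 33%, and as many as in Tent4a in 0.347%. Of the 10 genes named below for parting of intron and promoter, 6 matched the promoter table.

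A further set of sequences belongs to microRNA genes, because 40 first-intron peaks have one of 26 microRNA genes as their nearest start site, of which 23 matched the RefSeq microRNA table. The arms of miR-15a and miR-339 are shown because their peaks were the strongest of the 40, a choice made after their values were seen. Capitals mark the seed, bases 2 to 8.
mmu-miR-15a-5p: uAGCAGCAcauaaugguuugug
mmu-miR-15a-3p: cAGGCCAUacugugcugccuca
mmu-miR-339-5p: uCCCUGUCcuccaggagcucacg
mmu-miR-339-3p: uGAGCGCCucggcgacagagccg
The 39 matched mature microRNAs held 39 distinct seeds, so none formed a shared-seed family here. Mir15a (mature arms at chr14:61632038-61632059 and chr14:61632075-61632096, minus strand, GRCm38.p6) sits in the Dleu2 locus, whose first-intron peak held 206 and 188 reads in KL and 223 and 211 in KLG4m/m. The peak nearest to Mir339 (arms at chr5:139369673-139369695 and chr5:139369708-139369730, minus strand) lay in 3110082I17Rik and held 193 and 171 reads in KL and 183 and 199 in KLG4m/m, so its groups overlapped. The mean signals of these 40 peaks ran from 3.15 to 60.9 CPM. None passed edgeR's quasi-likelihood test in either direction, while 3 of the 40 had an unadjusted p under 0.05. The same held for 644 of the 3012 first-intron peaks and 8738 of the 35486 listed peaks.

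First-intron peaks were weak beside promoters. The mean signal of a peak over the 4 libraries had a median of 7.44 CPM (range 1.48 to 119.8), compared with 41.2 CPM for promoter peaks within 1 kb, 11.9 for promoter flanks at 1 to 3 kb, 6.73 for distal intergenic peaks and 6.22 for later introns. A median of 26 reads per library lay behind each peak, and 1056 peaks reached 10 CPM. Signal was higher nearer to a start site, with a median of 10.1 CPM at 3 to 5 kb, 8.02 at 5 to 10 kb, 7.06 at 10 to 20 kb, 6.37 at 20 to 50 kb and 5.61 beyond 50 kb. Distances ran up to 231.9 kb with a median of 10.4 kb.

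**Figure D1:**
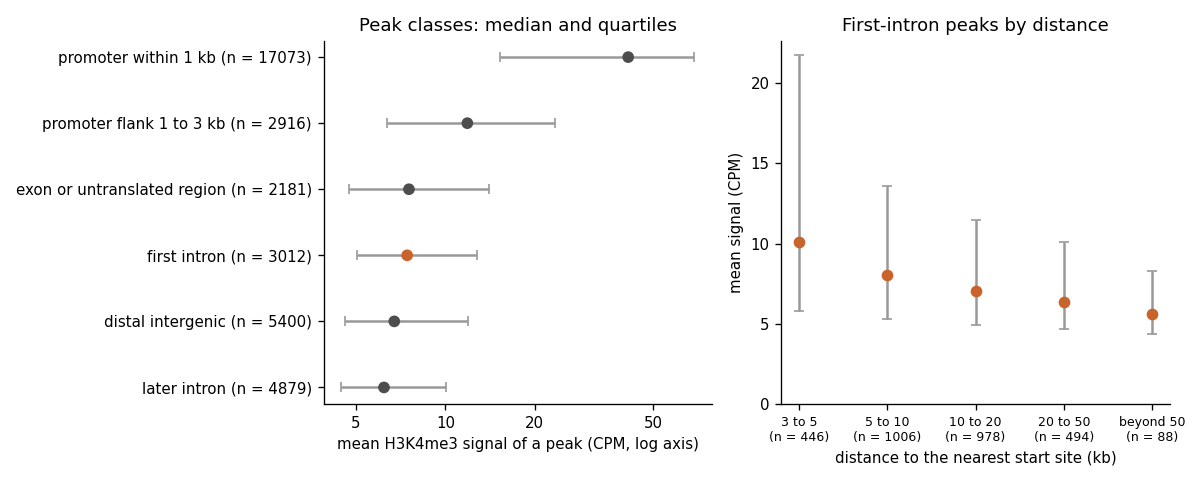
Mean H3K4me3 signal (CPM) of peaks by annotation class (left, log axis) and of first-intron peaks by distance to the nearest start site in kb (right). Points are medians and bars the quartiles over peaks. First-intron peaks (median 7.44 CPM) sit between later introns and promoter flanks, and their median falls from 10.1 CPM at 3 to 5 kb to 5.61 CPM beyond 50 kb.

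The nearest start site was not always that of the host. For 698 of the 3012 peaks (23.2%) the table assigned another gene, and in 517 of these the assigned gene was a predicted or unnamed one. Of the host genes, 1201 had 1 first-intron peak, 553 had 2 to 4, and 68 had 5 or more. Maml3, a mastermind-like co-activator of Notch signalling, had the most with 15, at 11.2 to 187.9 kb from the nearest start site. Morrbid, a long noncoding RNA known for control of myeloid cell survival, had 10. Ankrd44, a regulatory subunit of protein phosphatase 6, Foxp1, a forkhead factor of lung epithelium, and Rapgef1, an exchange factor for Rap1, had 9 each.

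The strongest first-intron peaks were high in every library. The peak in Gm36264, a predicted gene, held 463 and 446 reads in KL and 348 and 377 in KLG4m/m, with both KLG4m/m libraries below both KL libraries. It was lower in KLG4m/m (log2 fold change -0.27 ± 0.085 SE, adjusted p = 0.0472 by edgeR's quasi-likelihood test). Csk, the kinase that inactivates Src, held 282 and 253 reads in KL and 328 and 310 in KLG4m/m, without overlap (log2 0.31 ± 0.093, adjusted p = 0.0347). Cldn34d, a claudin family gene on chromosome X, held 221 and 248 against 362 and 307 (log2 0.57 ± 0.097, adjusted p = 4.6e-04). The other 5 of the 8 strongest, in Grk2, Stk40, Chd8, Nenf and Lncppara, had mean signals of 75.6 to 86.7 CPM and log2 fold changes of -0.07 to 0.24, and none passed the test.

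Between genotypes, 107 of the 3012 first-intron peaks (3.55%) were higher and 76 (2.52%) lower in KLG4m/m at an adjusted p under 0.05 by edgeR's quasi-likelihood test over all listed peaks. Among all listed peaks, 3.10% were higher and 5.52% lower. The share of higher first-intron peaks was thus near the background, and the share of lower ones was below it. Promoter peaks within 1 kb were lower in 8.43% of cases and higher in 2.89%, and later introns in 3.01% higher and 2.58% lower. DESeq2, run as an alternative, called 2 first-intron peaks higher and 1 lower, when it called 0.0930% and 0.688% of all listed peaks. The median log2 fold change was 0.06 over first-intron peaks and 0.01 over all peaks. Leaving out either KLG4m/m library left no first-intron peak past the threshold by edgeR's test.

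Calls were spread unevenly over the signal. Among first-intron peaks under 10 CPM, 33 of 1956 were higher and 55 lower. At 10 to 20 CPM, 43 of 687 (6.26%) were higher and 15 (2.18%) lower. At 20 to 50 CPM, 28 of 328 (8.54%) were higher and 4 (1.22%) lower, and over 50 CPM, 3 of 41 were higher and 2 lower. Over all listed peaks, 4.18% were higher and 6.23% lower at 10 to 20 CPM, and 4.28% and 10.1% at 20 to 50 CPM. Under 10 CPM these shares were 2.07% and 3.42%, and over 50 CPM 3.18% and 4.96%. Later introns had a similar split, with 71 of 3647 higher and 114 lower under 10 CPM but 36 of 354 higher and 3 lower at 20 to 50 CPM. Distal intergenic peaks at 20 to 50 CPM were nearer to balance, with 18 of 538 higher and 14 lower. Of promoter peaks within 1 kb at 20 to 50 CPM, 146 of 4690 were higher and 641 lower. These counts are descriptions of peak classes and the difference between classes was not tested.

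**Figure D2:**
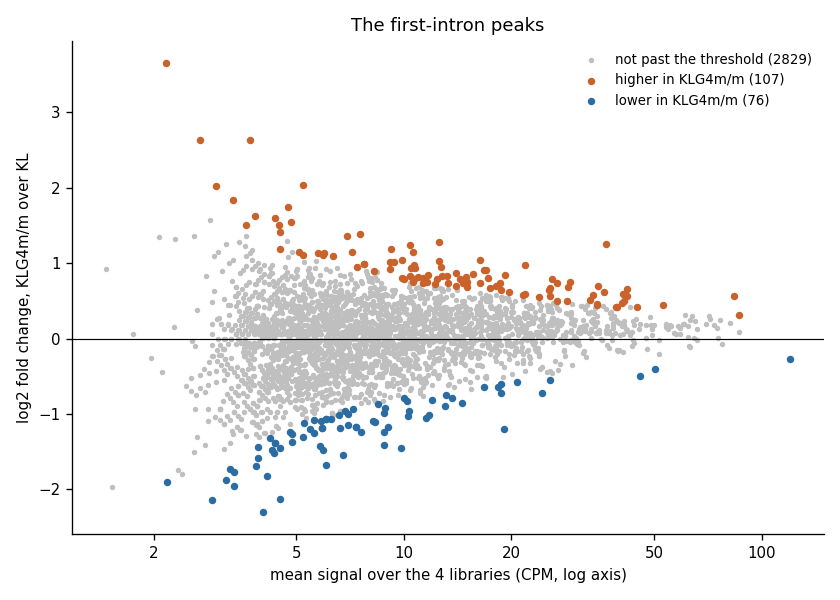
Log2 fold change (KLG4m/m over KL, y axis) against mean signal in CPM (x axis, log) for the 3012 first-intron peaks, 1 point per peak. The 107 higher peaks (orange) have a median signal of 12.8 CPM and the 76 lower peaks (blue) one of 6.80 CPM.

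Higher peaks had a median log2 fold change of 0.81 and lay in 100 host genes, and 33 of them changed at least 2-fold. Lower peaks had a median of -1.17, lay in 72 host genes and included 53 with at least a 2-fold change. Median distance to a start site was alike, 11.7 kb for both. Peaks assigned to a gene other than the host were higher in 3.58% of cases and lower in 2.87%, and the rest in 3.54% and 2.42%.

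The 10 largest increases and the 10 largest decreases were taken from peaks with at least 10 CPM in the higher group and without overlap between groups, so separation of the groups was a condition for naming them. Without regard to any test, 54.2% of all listed peaks and 1507 of the 3012 first-intron peaks had groups that did not overlap. Ksr1, Prkce, Rin3, Chn2 and Ralgps1 held 5 of the 10 largest increases. The peak in Ksr1, a scaffold of the RAF-MEK-ERK cascade (chr11:79016603-79017003), held 17 and 12 reads in KL and 38 and 35 in KLG4m/m. Its mean signal was 4.17 ± 1.01 CPM in KL and 10.9 ± 0.130 in KLG4m/m (SD, n = 2), a log2 fold change of 1.38 ± 0.30 (SE, adjusted p = 0.00445). Ksr1 had 3 higher first-intron peaks, the others with log2 fold changes of 0.61 and 0.50. The peak in Prkce, protein kinase C epsilon (chr17:86660274-86660674), held 20 and 23 reads in KL and 52 and 46 in KLG4m/m, a log2 fold change of 1.24 ± 0.25 (adjusted p = 0.00238). In Rin3, a Rab5 exchange factor (chr12:102270580-102270980), reads were 17 and 29 against 57 and 41 (log2 1.14 ± 0.27, adjusted p = 0.00759), and a second Rin3 peak rose by 0.91. Chn2, the Rac-inactivating beta-chimaerin, held 26 and 19 against 54 and 35 (log2 1.04 ± 0.27, adjusted p = 0.0165). Ralgps1, an exchange factor for Ral, held 30 and 27 against 49 and 63 (log2 1.03 ± 0.24, adjusted p = 0.00666).

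The other 5 lay in Gm36684, Rcsd1, Gm19708, Nedd4l and Gramd2b. The strongest by signal was that in Gm36684, a predicted gene (chr17:13525735-13526135), which held 77 and 74 reads in KL and 188 and 158 in KLG4m/m, or 21.7 ± 0.591 against 51.7 ± 3.96 CPM (log2 1.25 ± 0.14, adjusted p = 2.8e-06). That peak also passed DESeq2 (adjusted p = 5.5e-05), and its adjusted p over all alternatives ran from 1.4e-08 to 0.337. Rcsd1, which encodes a protein that binds the actin-capping complex CapZ, held 19 and 32 reads in KL and 68 and 51 in KLG4m/m (log2 1.27 ± 0.25, adjusted p = 0.0017). Gm19708 held 22 and 17 against 48 and 38 (log2 1.19 ± 0.27, adjusted p = 0.00605) and is assigned by distance to Dapp1, an adaptor of phosphoinositide signalling in B cells. A second first-intron peak of Gm19708 rose by 0.81. Nedd4l, a ubiquitin ligase that limits the epithelial sodium channel, held 42 and 32 against 84 and 63 (log2 1.04 ± 0.21, adjusted p = 0.00229). Gramd2b, a GRAM domain gene, held 29 and 14 against 42 and 42 (log2 1.02 ± 0.28, adjusted p = 0.0248), and a second peak there rose by 0.69. The first of these had a log2 fold change of 1.63 without KL replicate 1 and 0.59 without KL replicate 2 (adjusted p = 0.305, edgeR). Ago2, the slicing Argonaute, also had 2 higher peaks, with log2 fold changes of 0.79 and 0.81. Beside these increases, the summed lymphocyte and the macrophage and neutrophil marker signals were also higher in KLG4m/m, as given above, and their part was not tested.

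The largest decreases lay in Ptprm and Trio, and Phldb2, Snx25 and Gpr39 were also among the first 10. Ptprm, an adhesive receptor tyrosine phosphatase (chr17:67610589-67610989), held 29 and 41 reads in KL and 15 and 8 in KLG4m/m, 10.1 ± 2.45 against 3.41 ± 1.32 CPM (log2 -1.54 ± 0.34, adjusted p = 0.00494). Trio, a guanine nucleotide exchange factor (chr15:27937486-27937886), held 48 and 52 against 17 and 18 reads (log2 -1.45 ± 0.26, adjusted p = 8.5e-04). Phldb2, which anchors microtubules at the cell cortex, held 31 and 48 against 15 and 20 (log2 -1.11 ± 0.30, adjusted p = 0.0202). Snx25, a sorting nexin, held 32 and 39 against 13 and 17 (log2 -1.18 ± 0.30, adjusted p = 0.0149). Gpr39, a zinc-sensing receptor, held 42 and 29 against 17 and 13 (log2 -1.18 ± 0.31, adjusted p = 0.0168). Outside the largest 10, the adaptor Shb and Maml3 each had 2 lower peaks.

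Atg4c, Usp46, Tent4a and Gm11266 held 4 of the 5 remaining large decreases, and Plpp1, described with its pathway, held the other. Atg4c, a protease that processes ATG8 proteins (chr4:99099851-99100251), held 48 and 41 reads in KL and 18 and 14 in KLG4m/m (log2 -1.41 ± 0.28, adjusted p = 0.00199). Usp46, a deubiquitinase, held 31 and 43 against 15 and 15 (log2 -1.24 ± 0.30, adjusted p = 0.0103). Tent4a, a noncanonical poly(A) polymerase, held 34 and 52 against 21 and 14 (log2 -1.23 ± 0.29, adjusted p = 0.00881). Gm11266, a predicted gene (chr4:82431274-82431674), held 91 and 93 against 41 and 36 reads, 26.5 ± 0.431 against 11.5 ± 0.526 CPM (log2 -1.20 ± 0.19, adjusted p = 1.8e-04), and it also passed DESeq2 (adjusted p = 0.0191).

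**Figure D3:**
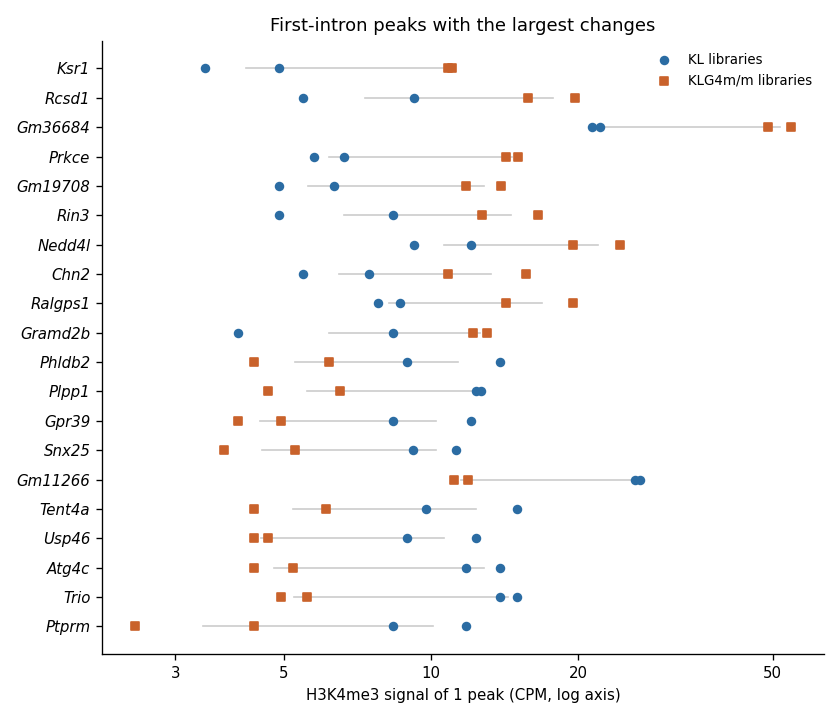
H3K4me3 signal in CPM (x axis, log) of first-intron peaks, 10 with the greatest increases and 10 with the greatest decreases, 1 row per peak named by its host gene. Circles are KL libraries, squares KLG4m/m libraries and grey lines join the group means. Separate groups were a condition for naming these peaks. Ksr1 is at 3.46 and 4.89 CPM in KL and 10.8 and 11.0 in KLG4m/m.

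First-intron peaks of one host gene did not always move together. In 3 host genes both a higher and a lower peak were called. Peaks were grouped by gene name, so those of one gene can lie far apart or in introns of different transcripts. Tspan13, a tetraspanin, had one peak at 5.23 kb from the start site that held 58 and 74 KL reads and 107 and 112 KLG4m/m reads (log2 0.79 ± 0.17, adjusted p = 0.00356). Its other peak, at 10.8 kb, held 36 and 25 against 13 and 16 reads (log2 -1.01 ± 0.32, adjusted p = 0.0495). Ptprm had, beside the lower peak above, one at chr17:67500871-67501271 that held 4 and 3 KL reads and 22 and 21 KLG4m/m reads (log2 2.63 ± 0.49, adjusted p = 0.00104). Prkce had 2 higher peaks and one lower, the latter with 45 and 43 against 28 and 21 reads (log2 -0.78 ± 0.25, adjusted p = 0.0493) and nearest to 2010106C02Rik. Summed over its 15 peaks, Maml3 held 786 and 701 reads in KL and 595 and 630 in KLG4m/m. Of these peaks 11 had a fold change below 0 and 2 passed the test, at -2.13 and -1.24. Morrbid, at 209 and 273 against 265 and 250 reads over 10 peaks, had overlapping groups and no called peak, and neither Ankrd44 nor Rapgef1 had one.

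Triacylglycerol synthesis and lipid droplet genes, the pathway of the study, had 12 first-intron peaks in 10 of 32 listed genes, with 1 higher and 2 lower and a median log2 fold change of -0.16, against 0.01 over all listed peaks. The counts of this and the following lists stand beside 3.55% higher and 2.52% lower over all first-intron peaks, and 3.10% and 5.52% over all listed peaks. Gpat4, a glycerol-3-phosphate acyltransferase of the first step (chr8:23688576-23688976), held 26 and 23 reads in KL and 9 and 9 in KLG4m/m (log2 -1.38 ± 0.37, adjusted p = 0.02). Plpp1, a phosphatase that turns phosphatidic acid into diacylglycerol (chr13:112947408-112947808), held 44 and 43 against 16 and 21 (log2 -1.17 ± 0.27, adjusted p = 0.00733). Pla2g4a, the cytosolic phospholipase that releases arachidonate, held 20 and 15 against 32 and 33 reads (log2 0.95 ± 0.29, adjusted p = 0.0434). DESeq2 gave the Gpat4 and Pla2g4a peaks no adjusted p, and the Plpp1 peak did not pass it (adjusted p = 0.26). Leaving out 1 library gave log2 fold changes of -1.46 to -1.29 for Gpat4, -1.42 to -0.95 for Plpp1 and 0.755 to 1.165 for Pla2g4a. The peak of Gpd1l, a glycerol-3-phosphate dehydrogenase, had a log2 fold change of 0.75 and did not pass (adjusted p = 0.144), and Dgat2 had no first-intron peak. The paper reports more H3K4me3 at the Dgat2 and Gpd1l loci, with a PCR assay at their promoters, and more Plpp1 mRNA. First-intron peaks alone do not test those results. The Plpp1 promoter peak was called higher, as described further on. Agpat4 and Srebf2, whose mRNA was also higher in the paper, had first-intron peaks at log2 -0.50 and at -0.02 and 0.14, and none passed.

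Ferroptosis genes had 14 first-intron peaks in 6 of 28 listed genes, with 1 higher, none lower and a median of 0.09. The higher peak lay in Gsr, glutathione reductase (chr8:34152987-34153387), which held 40 and 55 reads in KL and 80 and 84 in KLG4m/m, without overlap (log2 0.84 ± 0.19, adjusted p = 0.00646). The other 2 Gsr peaks had log2 fold changes of 0.34 and -4.3e-04 and did not pass. Gpx4 itself had no first-intron peak.

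Lung lineage factors had 14 peaks in 5 of 31 genes, of which 1, in Foxp1, was higher, and their median was -0.08. Its 23 and 19 reads in KL stood against 44 and 38 in KLG4m/m (log2 1.02 ± 0.26, adjusted p = 0.0158), while the other 8 Foxp1 peaks ranged from -0.74 to 0.97 and did not pass. Alveolar and secretory cell genes had 6 peaks in 2 of 23 genes, Clic5 and Pdpn, with a median of -0.75. Of these, 1 was lower, in Clic5, a gene of alveolar type I cells, with 61 and 59 reads against 37 and 30 (log2 -0.78 ± 0.21, adjusted p = 0.0217). The 4 Clic5 peaks had log2 fold changes between -0.82 and -0.71, and the Pdpn peaks had -0.57 and 0.03. Hippo, TGF-beta and Wnt genes had 24 peaks in 9 of 33 genes with 2 higher and none lower, and a median of -0.02. These were peaks in Smad3 and Vgll4. Smad3, the TGF-beta effector, held 38 and 47 against 70 and 66 reads (log2 0.73 ± 0.20, adjusted p = 0.0204). Vgll4, a TEAD cofactor, held 56 and 45 against 81 and 71 reads (log2 0.65 ± 0.19, adjusted p = 0.031). The other Smad3 peaks had log2 fold changes of -0.17 to 0.64, the other Vgll4 peak had 0.06, and none of them passed.

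No first-intron peak passed edgeR's test in 5 further lists, which were RAS-MAPK signalling (11 peaks, median -0.05), AP-1, NF-kB and stress factors (9 peaks, 0.10), LKB1, AMPK, SIK and CRTC (7 peaks, 0.08), epithelial-mesenchymal transition and cytoskeleton (19 peaks, -0.08) and H3K4 regulators (1 peak, in Kmt2d, 0.05). In all, 5 of 115 pathway list peaks were higher and 3 lower, with a median of -0.02, beside the shares over all first-intron peaks given above. None of these called peaks passed DESeq2. Few cell type markers had a first-intron peak. Tek, an endothelial receptor, had 2, one of them lower with 30 and 35 reads against 16 and 15 (log2 -1.01 ± 0.30, adjusted p = 0.0357). DESeq2 gave this Tek peak no adjusted p, and the summed endothelial marker signal overlapped between groups. Cx3cr1 of macrophages had 1 that did not pass. All epithelial, lymphocyte and fibroblast markers were without one.

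As a share of reads in listed peaks, first-intron peaks took 3.27% and 3.23% in KL and 3.396% and 3.398% in KLG4m/m. Both KLG4m/m libraries were above both KL libraries, a difference of 0.146 percentage points (exact permutation test, two-sided, p = 0.333, the smallest that 2 libraries against 2 can give). Later introns took 4.503% and 4.494% in KL and 4.665% and 4.677% in KLG4m/m, and promoters within 1 kb took 77.57% and 77.65%, then 76.87% and 76.90%. The log2 ratio of first-intron to later-intron reads was -0.47 ± 0.011 in KL and -0.46 ± 0.0021 in KLG4m/m (SD, n = 2), and the groups overlapped (exact permutation p = 0.667). Against promoters within 1 kb, the log2 ratio of first-intron reads was higher by 0.08 in KLG4m/m with no overlap (exact permutation p = 0.333). Against distal intergenic peaks it was higher by 0.015 and the groups overlapped (exact permutation p = 0.667). Mean shares of distal intergenic peaks (6.20% to 6.41%), promoter flanks (5.74% to 5.90%) and exons or untranslated regions (2.68% to 2.71%) were also higher in KLG4m/m, without overlap.

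**Figure D4:**
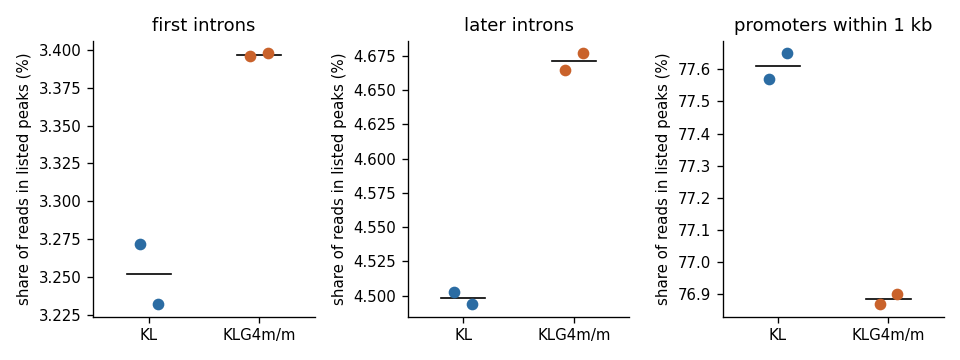
Share of reads in listed peaks (%, y axis, not starting at 0) that fell in first introns, later introns and promoters within 1 kb, with 1 point per library and lines at the means of KL (blue) and KLG4m/m (orange). First-intron shares are 3.23% and 3.27% in KL and about 3.40% in both KLG4m/m libraries, and promoter shares are lower in KLG4m/m.

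To compare the first intron with promoters of the same gene, reads were summed over both kinds of peak in the 1431 host genes that had them. These genes hold 2455 first-intron peaks. Peaks were joined by gene name, so a promoter peak need not belong to the transcript whose intron was annotated. The first-intron signal was a median of 26.1% of the promoter signal and exceeded it in 167 genes. Relative to the promoter, the first intron rose in KLG4m/m in 89 genes (6.22% of those tested) and fell in 36 (2.52%) by edgeR's quasi-likelihood test of the interaction. Over all 1431 genes, the promoter moved more than the intron in 565 (39.5%). In the 89 genes that rose, the median log2 change was 0.41 in the intron and -0.45 in the promoter. The promoter moved more than the intron in 51 of these 89. A promoter peak was called lower in 51 of the 89, against 225 of all 1431 genes (15.7%). Since the promoter enters the ratio, that count is a description. In the 36 genes that fell, the intron moved more in 33, with a median of -0.97, against 0.09 in the promoter. Without 1 library, the genes that rose numbered 11 to 47 and those that fell 1 to 13.

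**Figure D5:**
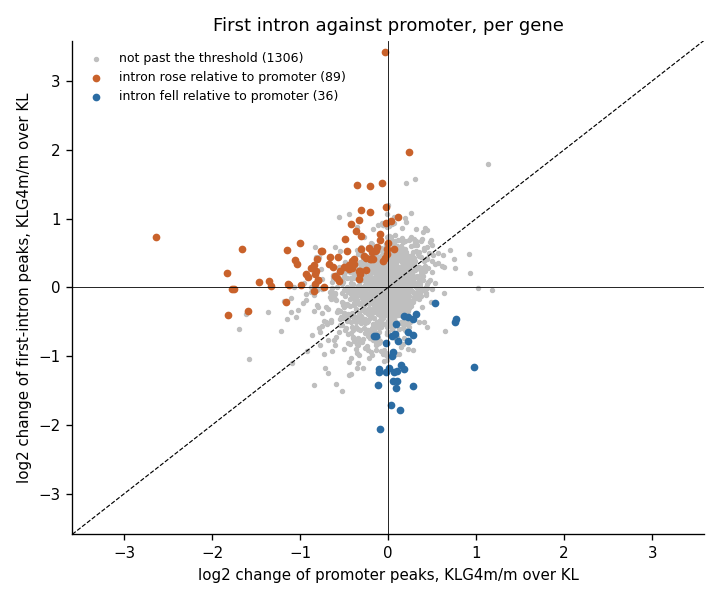
Log2 change (KLG4m/m over KL) of the summed first-intron peaks (y axis) against that of the summed promoter peaks within 1 kb (x axis) for 1431 genes, with the line of equality dashed. Genes whose intron rose relative to the promoter (89, orange) lie above the line and often left of 0, and genes whose intron fell (36, blue) lie mostly straight below 0.

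Among genes whose sums both reached 10 CPM in at least 1 group, in the 5 with the largest rises the promoter peak was called lower and moved more than the intron. Gab2, an adaptor of receptor tyrosine kinase signalling, held 34 and 85 promoter reads in KL and 12 and 6 in KLG4m/m, whereas its first-intron reads were 25 and 25 against 49 and 32. The ratio rose by 3.38 ± 0.45 on the log2 scale (SE, adjusted p = 1.3e-10), and by 2.60 without KL replicate 2 and 3.92 without KL replicate 1, the KL libraries with 85 and 34 promoter reads. Rasa2, a GTPase activator that switches off RAS, held 66 and 82 promoter reads against 27 and 18, and 28 and 25 intron reads against 39 and 36 (log2 2.21 ± 0.38, adjusted p = 2.5e-06). Kif2a, a microtubule-depolymerizing kinesin, had 109 and 112 promoter reads against 57 and 49, and 20 and 25 intron reads against 30 and 38 (log2 1.65 ± 0.34, adjusted p = 1.5e-04). Gse1, a coregulator found with histone deacetylase complexes, had fewer promoter reads, 41 and 43 against 9 and 14, beside level intron reads of 228 and 226 against 221 and 210 (log2 1.78 ± 0.35, adjusted p = 5.8e-05). In Rnf217, a ubiquitin ligase, both elements were lower, the promoter with 36 and 61 against 15 and 11 and the intron with 46 and 38 against 33 and 28 (log2 1.42 ± 0.43, adjusted p = 0.019). Without KL replicate 2 the Rnf217 ratio was log2 0.87 (adjusted p = 0.404, edgeR), and without KLG4m/m replicate 3 or 4 its adjusted p was 0.168 and 0.205. Kif2a lost its call without KLG4m/m replicate 4 (adjusted p = 0.074, edgeR) and Gse1 without KLG4m/m replicate 3 (0.0664), while Gab2 and Rasa2 stayed past the threshold in all 4 such fits. The windows of Rasa2 and Rnf217 printed above belong to these genes, but the table's promoter peaks were not matched to them by position because the builds differ.

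Plpp1 showed the largest relative fall. Its promoter peak was called higher and its intron peak lower. The promoter held 73 and 61 reads in KL and 128 and 126 in KLG4m/m, while the intron peak described above fell from 44 and 43 to 16 and 21 (ratio log2 -2.15 ± 0.33, adjusted p = 5.3e-08). The elements of this lipid phosphatase gene thus moved in opposite directions, and the ratio stayed past the threshold without any 1 library. Ccbe1, a secreted factor of lymphatic growth, had level promoter reads, 53 and 43 against 45 and 56, and fewer intron reads, 34 and 44 against 6 and 15 (log2 -1.96 ± 0.42, adjusted p = 3.4e-04). Tent4a likewise had 303 and 310 promoter reads against 298 and 281, with the lower intron peak given above (log2 -1.21 ± 0.32, adjusted p = 0.00539). Cd6, a T cell surface receptor, had more promoter reads, 35 and 45 against 68 and 63, and fewer intron reads, 56 and 48 against 42 and 29 (log2 -1.26 ± 0.33, adjusted p = 0.00471). Gm31814, a predicted gene, had 46 and 67 promoter reads against 115 and 72 and 38 and 34 intron reads against 25 and 25 (log2 -1.25 ± 0.34, adjusted p = 0.00644). Of these, Ccbe1 lost its call without KL replicate 2 or KLG4m/m replicate 3 (adjusted p = 0.0512 and 0.0855, edgeR) and Gm31814 without KL replicate 1 or KLG4m/m replicate 3 (0.229 and 0.263). Cd6 lost its call without KL replicate 1 (0.156) or either KLG4m/m library (0.0664 and 0.124), and Tent4a without KL replicate 2 (0.289) or either KLG4m/m library (0.0838 and 0.176). Under DESeq2, Gab2 rose and Plpp1 fell past the threshold (adjusted p = 0.0073 and 0.027), and no other gene did.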

How the data were processed

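CUT&Tag libraries of H3K4me3 from 4 mouse lung tumor samples were analysed. The H3K27ac samples were not analysed here. By the paper's methods, reads were trimmed with Trim Galore (0.6.10), mapped with BWA (0.7.15) and cleared of duplicates with Picard (2.17.3). Peaks were called with MACS2 (2.2.7.1) and assigned to genes with HOMER (4.11.1). The promoter limit that the methods give for this assignment differs from the 3 kb limit of the annotation used here. The methods name Ensembl 94, whereas contig names in the table are those of GRCm39, so coordinates are as the table lists them and whether starts count from 0 or 1 is not given in the sources used here. The deposited table gives read counts per peak and library, and the CPM that the authors made from them. It also holds fold changes and p-values of the authors' own comparison, which were not used. Other deposited columns, distance to the start site and gene annotation, define the classes.

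All 35486 peaks were fitted in edgeR (4.0.16, R 4.3.3) with TMM scaling and the quasi-likelihood test, without a filter, with Benjamini-Hochberg adjustment over all peaks and a threshold of 0.05. SE is the size of the log2 fold change over the root of F. CPM printed are TMM-scaled. For intron against promoter, the model held library, element and element by genotype. Both models were also run on counts simulated with a fixed spread between libraries, which cannot test how the calls depend on that spread. Alternatives were DESeq2 (1.42.0), limma (3.58.1), total-read scaling, a minimum of 10 CPM, and leaving out each library. Named peaks are the 10 largest increases and decreases without overlap between groups whose higher mean reached 10 CPM, the 8 strongest, called peaks of listed genes, the 5 genes with most peaks and the 5 largest rises and falls of the ratio with at least 10 CPM. Peaks of genes with several called peaks or peaks of both directions were added after their values were seen. One allele shared by both genotypes and one host gene are not reported here. The members and gene lists were chosen with earlier results of these data known. The methods state 3 mice in total while the figure legend gives 2 per group, and mice are not tied to libraries.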

Additional observations from a re-analysis of the deposited data

How the results depend on the processing

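Calls rested strongly on the test and on each library. Without either KLG4m/m library, edgeR's quasi-likelihood test called no first-intron peak in either direction. At an unadjusted p under 0.05 it then counted 199 higher and 180 lower without replicate 3, and 218 and 207 without replicate 4, and the lone library is assumed to vary like the KL group. Over the fits that left out 1 library, higher peaks ranged from 0 to 69 and lower from 0 to 42 (107 and 76 with all 4), with 69 and 42 without KL replicate 1 and 48 and 27 without KL replicate 2. DESeq2 called 2 higher and 1 lower (85 and 65 at an unadjusted p under 0.05). With at least 10 CPM, 77 were higher and 28 lower. Total-read scaling (97 and 77), limma on log2(CPM + 1) (91 and 73) and a further 1.5-fold limit (89 and 71) stayed within 1.5 times. Of 31 named peaks called by edgeR, DESeq2 gave 6 no adjusted p, 3 stayed past the threshold and 22 did not. Genes whose intron rose relative to the promoter numbered 89, and 11 to 47 without 1 library (47 and 25 without KL replicates 1 and 2, 11 and 18 without KLG4m/m replicates 3 and 4). Genes that fell numbered 36, and 1 to 13 without 1 library (13, 5, 1 and 5 in that order). DESeq2 gave 1 and 1, and a minimum of 10 CPM in both sums left 71 and 23. The log2 difference in the first-intron to later-intron ratio was 0.0088 and turned to -0.023 with at least 10 CPM. For Lncppara, log2 0.01, the sign turned under limma (-0.00018) and without KL replicate 2 (-0.013) or KLG4m/m replicate 4, and leaving out 1 library gave -0.10 to 0.12. The cause was not tested. No paired analysis was possible because KL libraries carry replicate numbers 1 and 2 and KLG4m/m libraries 3 and 4. At a median of 26 reads per library, small changes of single peaks were not detectable at this depth.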

Other observations

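Some first-intron peaks below the 10 CPM limit for naming also had large changes, and 3 are given here after their values were seen. Steap4, a metalloreductase gene, held 6 and 8 reads in KL and 21 and 35 in KLG4m/m (log2 fold change 2.04 ± 0.41 SE, adjusted p = 0.00231, edgeR). In Pde7b, a cAMP phosphodiesterase gene, 1 of 3 first-intron peaks held 21 and 26 reads in KL and 7 and 2 in KLG4m/m (log2 -2.30 ± 0.47, adjusted p = 0.0029). Anxa4, an annexin gene of epithelia, held 20 and 13 against 2 and 5 reads (log2 -2.14 ± 0.56, adjusted p = 0.0159). Each peak rests on few reads.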
